A study of Mus musculus with 15 samples.

Results

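The genes described here encode the enzymes of cholesterol and fatty acid synthesis and the proteins that regulate them through the sterol regulatory element binding proteins (SREBPs). They were taken as the non-control probes whose gene name in the scanner files is one of 32 symbols, and 49 of the 55681 probes, for 32 of 22405 named genes, met that rule. Of these genes, 16 were grouped under sterol synthesis, 10 under fatty acid synthesis, 5 under SREBP regulation and 1, Stard4, under sterol transport. The fatty acid group includes genes of fatty acid modification and Lpin1, a glycerolipid enzyme. All had at least 1 probe with a value on each array, and all 32 passed the filter on dim probes in each comparison. Transcript levels were measured on one-colour Agilent arrays in primary mouse lung fibroblasts and primary mouse alveolar type II (ATII) cells, the epithelial cells that make lung surfactant. The fibroblasts had gone through 3 or more passages and then 24 h of starvation, whereas the ATII cells had grown to a monolayer over 3 days at an air-liquid interface. For the last 24 h the medium held either saline (PBS) as vehicle or BAPN (β-aminopropionitrile), an irreversible inhibitor of the collagen cross-linking lysyl oxidases, at 1 mM. Vehicle groups had 4 arrays in both cell types, and BAPN groups had 3 for fibroblasts and 4 for ATII cells. The labels give no strain, age or sex, and do not say whether replicates were separate animals or cultures. The p-values therefore reflect only how these samples varied, and that variation may be technical. Because each cell type had its own culture protocol, cell type and culture condition cannot be told apart.

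Cells build cholesterol from acetyl-CoA through mevalonate, farnesyl diphosphate, squalene and lanosterol, and build fatty acids from the same acetyl-CoA through malonyl-CoA. When sterols in the endoplasmic reticulum membrane are low, the escort protein SCAP carries SREBPs to the Golgi, where they are cleaved and released to activate most genes of both pathways. When sterols are plentiful, INSIG proteins hold SCAP back. ATII cells are known for lipid synthesis, since surfactant consists largely of phosphatidylcholine with some cholesterol, and for relying on SREBPs in doing so. Levels below are normalized log2 intensities, on which 0 is the 75th percentile of an array, and a difference of 1 is 2-fold. Levels are compared within a probe, not between genes.

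The arrays carried between 65.2% and 71.2% of non-control spots well above background, with 0 saturated spots. They lay on 2 slides, both of which held arrays of all 4 groups. Vehicle arrays were split evenly between the slides, whereas most fibroblast BAPN arrays lay on slide 2 and most ATII BAPN arrays on slide 1. The labelled cell types were checked against marker lists. Cdh1 and Epcam, defining epithelial genes, were at 4.38 and 3.23 in vehicle ATII cells, and Cdh1 was not well above background on any vehicle fibroblast array (at least 726-fold). The surfactant gene Sftpc was at least 78.2-fold higher in vehicle ATII cells and not well above background in vehicle fibroblasts. Of 8 fibroblast markers, 4 were lower in vehicle ATII cells, and their median level ranged over arrays from 3.97 to 4.42 there against 5.41 to 6.44 in vehicle fibroblasts. Col1a1, Col1a2 and Col3a1 did not pass the test between the cell types (log2 differences 0.068, 0.034 and -0.071). Of 6 leukocyte markers, 5 were lower in vehicle ATII cells, with array medians from -1.64 to -0.66 against 1.68 to 2.56 in vehicle fibroblasts. Adipocyte markers lay from -3.42 to -3.10 in vehicle ATII cells and from -3.96 to -3.19 in vehicle fibroblasts, and Adipoq was not well above background in either. Many of these marker levels, though not those of the 3 collagen genes, move with cell type, and their part in the differences below was not tested. In such bulk RNA, more cells of a type and more RNA per cell cannot be told apart.

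With vehicle, ATII cells carried more transcript than fibroblasts for nearly the whole of both pathways. Of the 32 genes, 28 were higher in ATII cells, 1 (Insig2) was lower, and 3 (Acat2, Mvk and Scap) did not pass the test at an adjusted p of 0.05 (limma, Benjamini-Hochberg adjustment over all features tested). Over all 32470 features tested, 31.3% passed, 14.5% higher and 16.9% lower in ATII cells. Among the 26185 features well above background on all arrays compared, where all 32 genes also lie, 15.9% were higher. The median log2 difference was 0.92 over the 32 genes and -0.13 over all features, a shift that quantile normalization moved to -0.017, with 0.93 for the 32 genes. By role, 14 of 16 sterol synthesis genes were higher (median 1.14), as were 10 of 10 genes of the fatty acid group, Lpin1 included (median 0.92). So were 3 of 5 SREBP regulation genes (median 0.31) and Stard4. The genes without overlap between the 4 ATII and the 4 fibroblast arrays numbered 29, Scap among them, against 34.6% of all features without overlap, 15.4% higher and 19.2% lower. On slide 1 alone, 23 of the 32 passed, with a median of 0.97, and on slide 2 alone 18 passed, with a median of 1.03.

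**Figure D1:**
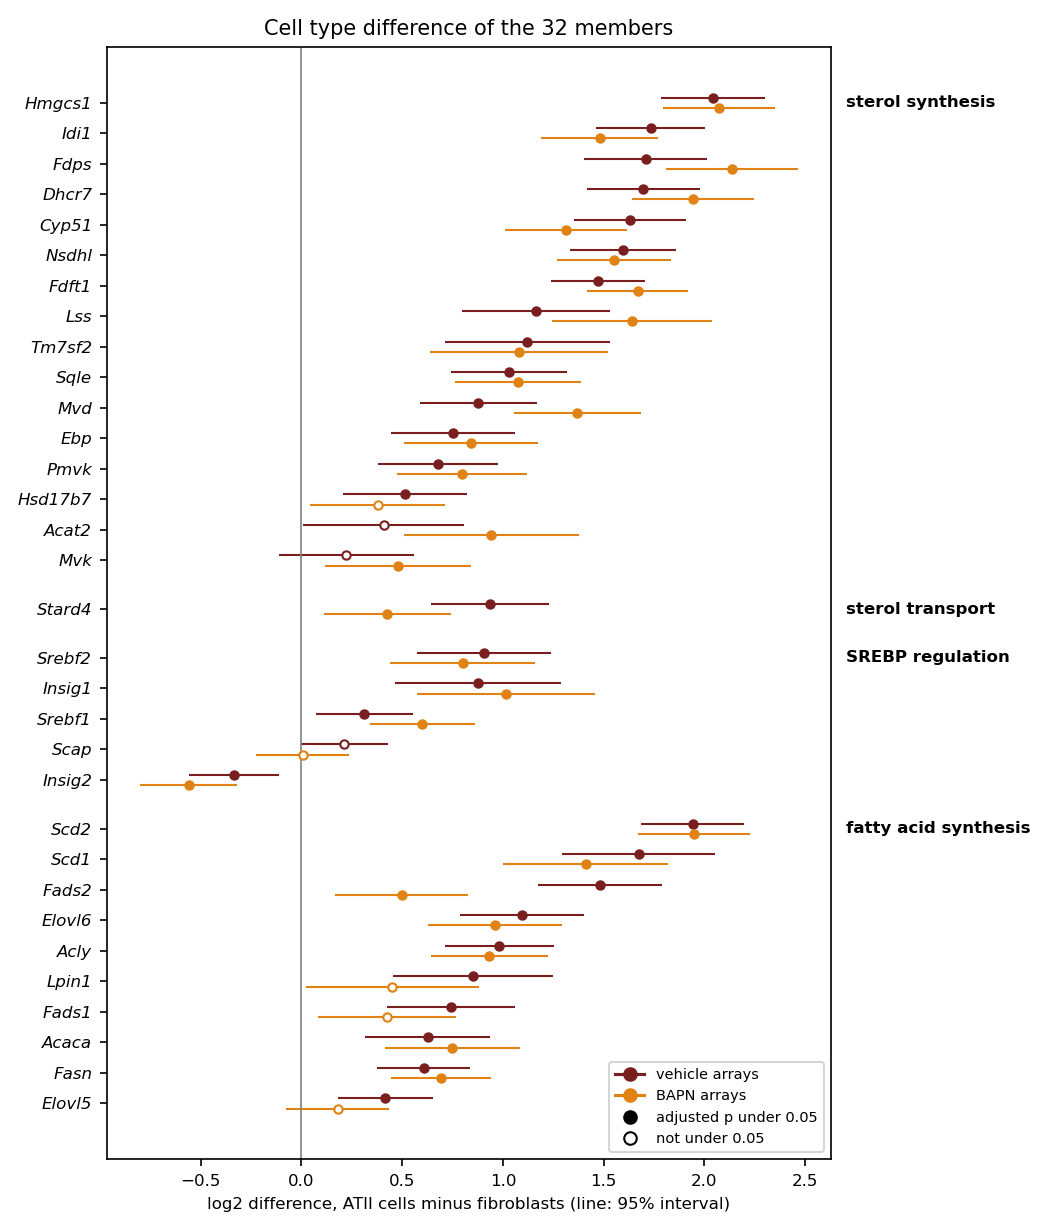
Log2 difference between ATII cells and fibroblasts (x axis) for each of the 32 genes (y axis, by role), on vehicle arrays (dark red) and on BAPN arrays (orange), with 95% intervals from limma; filled points passed an adjusted p of 0.05. Most genes sit right of 0 on both sets of arrays. The highest was Hmgcs1 on vehicle arrays (2.04) and Fdps on BAPN arrays (2.14), and Insig2 was lowest on both (-0.34 and -0.56).

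In the early part of the sterol pathway, Hmgcs1, which joins acetyl-CoA to acetoacetyl-CoA, showed the largest difference of all 32 genes with vehicle. Its level was 5.65, 5.84, 5.52 and 5.42 on the ATII vehicle arrays and 3.56, 3.41, 3.73 and 3.57 on the fibroblast vehicle arrays. No array of one group reached the other, and ATII cells were 4.11-fold higher (log2 difference 2.04 ± 0.12, SE; adjusted p = 3.18e-08, limma). Idi1, which isomerises the isoprene unit, was at 4.30, 4.58, 4.12 and 4.09 in ATII cells and 2.52, 2.63, 2.49 and 2.52 in fibroblasts. Its fibroblast arrays lay close together, and ATII cells were 3.33-fold higher (1.73 ± 0.125; adjusted p = 2.32e-07). Fdps, the farnesyl diphosphate synthase, was at 6.66, 6.92, 6.46 and 6.67 against 4.67, 5.01, 4.85 and 5.34. Fibroblast replicate 4 was the highest of its group, yet below all ATII arrays, and the difference was 3.27-fold (1.71 ± 0.141; adjusted p = 8.23e-07). The 3 enzymes that phosphorylate and decarboxylate mevalonate differed less. Mvd, the decarboxylase, was 1.84-fold higher and Pmvk, the phosphomevalonate kinase, 1.6-fold higher (adjusted p = 0.000218 and 0.00185). Mvk, the mevalonate kinase, had a log2 difference of 0.22 ± 0.155 that did not pass (adjusted p = 0.328), and its groups overlapped. Acat2, the cytosolic thiolase of the first step, had 0.41 ± 0.186 and did not pass either (adjusted p = 0.12), although its groups did not overlap.

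From squalene onward, Fdft1, the squalene synthase, was at 3.37, 3.60, 3.40 and 3.39 in vehicle ATII cells and 1.88, 1.96, 1.88 and 2.15 in vehicle fibroblasts. The gap between the groups was wider than the range of either, and ATII cells were 2.77-fold higher (1.47 ± 0.109; adjusted p = 2.78e-07). A second, dim Fdft1 probe, at means of -4.60 and -4.44, showed -0.16 ± 0.239, the only one of 16 tested further probes of these genes whose sign differed with vehicle from that of the probe used. Sqle, the squalene epoxidase, and Lss, the lanosterol synthase, were 2.04-fold and 2.24-fold higher in ATII cells (adjusted p = 5.08e-05 and 0.000142). Cyp51, which demethylates lanosterol, was at 1.57, 1.84, 1.43 and 1.68 in ATII cells and 0.013, 0.03, -0.095 and 0.044 in fibroblasts. The fibroblast arrays sat close to 0 and well below all ATII arrays, a 3.1-fold difference (1.63 ± 0.13; adjusted p = 5.64e-07).

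Among the late steps that turn lanosterol products into cholesterol, Nsdhl, a sterol dehydrogenase, was at 1.93, 1.92, 1.64 and 1.55 in vehicle ATII cells and 0.10, 0.31, 0.21 and 0.042 in vehicle fibroblasts. The groups did not overlap, and the difference was 3.02-fold (1.59 ± 0.121; adjusted p = 3.74e-07). Dhcr7, the reductase of the final step, was at -0.13, 0.025, -0.082 and -0.26 in ATII cells and -1.97, -1.96, -1.73 and -1.57 in fibroblasts, again without overlap. It was 3.24-fold higher in ATII cells (1.70 ± 0.13; adjusted p = 4.05e-07). Tm7sf2, a sterol reductase, Ebp, a sterol isomerase, and Hsd17b7, a sterol ketone reductase, were 2.18-fold, 1.69-fold and 1.43-fold higher. Hsd17b7 (adjusted p = 0.014) did not pass with the mean of its 3 probes (0.53, adjusted p = 0.109) or on slide 1 (adjusted p = 0.0522) or slide 2 alone (adjusted p = 0.0971). Stard4, which carries cholesterol between membranes, was 1.91-fold higher (0.94 ± 0.135; adjusted p = 0.000128). The array median of the 16 sterol synthesis genes ran from 2.68 to 3.07 over the 8 ATII arrays and from 1.57 to 1.89 over the 7 fibroblast arrays, whatever the treatment.

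**Figure D2:**
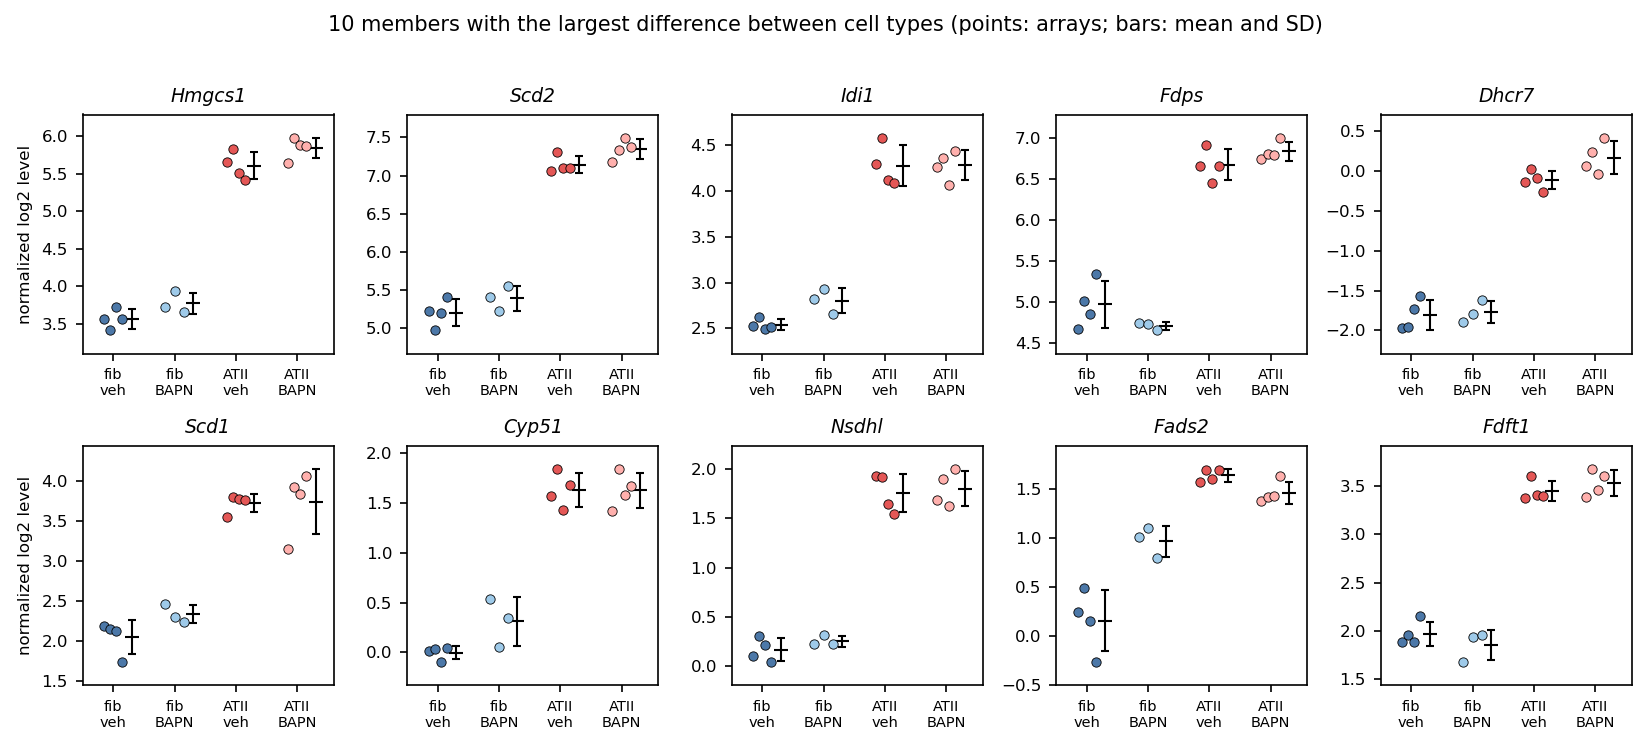
Normalized log2 level (y axis) on each of the 15 arrays (points) in the 4 groups (x axis; fib, fibroblasts; veh, vehicle) for the 10 genes with the largest vehicle difference between cell types, with mean and SD. In each panel all 8 ATII arrays lie above all 7 fibroblast arrays, and in Fads2 the 3 fibroblast BAPN arrays lie above the 4 fibroblast vehicle arrays.

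As most of these genes differed in the same direction, the promoter windows of RefSeq (assembly GRCm38.p6; 250 bases before to 50 after a start) were searched on both strands. Windows were given for 25 of the 32 genes, and Fads1, Fdft1, Fdps, Scd1, Scd2, Sqle and Stard4 were not matched. The stretches just before the start of Hmgcs1, Idi1 and Nsdhl are shown as examples of strongly differing sterol genes. Mvk is shown as one that did not pass the test with vehicle. Capitals mark CCAAT, or ATTGG where it lies on the other strand, and in Hmgcs1 also the single match to the sterol regulatory element spelled TCACNCCAC.
Hmgcs1, chr13:119690101-119690350, plus strand: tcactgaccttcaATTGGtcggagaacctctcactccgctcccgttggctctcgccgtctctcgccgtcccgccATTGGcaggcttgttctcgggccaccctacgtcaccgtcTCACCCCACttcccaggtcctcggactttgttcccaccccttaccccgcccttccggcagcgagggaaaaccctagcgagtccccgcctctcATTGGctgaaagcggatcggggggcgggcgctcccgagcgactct
Idi1, chr13:8885506-8885605, plus strand: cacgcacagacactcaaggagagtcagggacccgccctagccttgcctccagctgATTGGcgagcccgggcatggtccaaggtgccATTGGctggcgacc
Nsdhl, chrX:72918401-72918520, plus strand: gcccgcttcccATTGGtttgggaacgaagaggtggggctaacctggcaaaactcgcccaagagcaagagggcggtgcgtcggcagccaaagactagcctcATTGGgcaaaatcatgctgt
Mvk, chr5:114444089-114444268, plus strand: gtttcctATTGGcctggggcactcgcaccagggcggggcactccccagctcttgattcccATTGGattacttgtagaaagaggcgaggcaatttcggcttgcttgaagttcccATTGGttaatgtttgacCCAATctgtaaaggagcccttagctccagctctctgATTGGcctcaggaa
CCAAT, bound by the SREBP partner NF-Y, was found in 20 of the genes' 33 windows (60.6%) and in 37.4% of all 32851 windows. GGGCGG, a GC box of the kind bound by Sp1, was in 23 of 33 (69.7%) and in 35.7% of all. CACGTG, an E-box, was in 6 of 33 (18.2%) and in 7.15% of all. Windows of 1 gene can overlap, so these windows are not independent. By gene, CCAAT was in 19 of 25 (76%) against 41.1% of all genes with a window. GGGCGG was in 19 of 25 (76%) against 38.2%, and CACGTG in 5 of 25 (20%) against 8.09%. All windows were counted, whether or not the gene was expressed in these cells, and a link to the cell type difference was not tested. TCACNCCAC was found in 1 window, that of Hmgcs1, starting 137 bases before the start, against 1.24% of all windows. The looser TCANNCCAC, which contains the former and was searched after only 1 gene held the stricter spelling, was in 3 windows (Hmgcs1, Acly and Elovl5; 9.09%) and in 4.18% of all. Hmgcs1 and Nsdhl each had 4 CCAAT matches in the window, Idi1 had 2, and Mvk, which passed on the BAPN arrays only, had 5.

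Of the regulators, both SREBP genes were higher in vehicle ATII cells. Srebf2, whose product mainly drives cholesterol genes, was at 1.18, 1.38, 1.52 and 1.45 in ATII cells and 0.085, 0.63, 0.56 and 0.62 in fibroblasts. The lowest value was fibroblast replicate 1, no arrays overlapped, and ATII cells were 1.88-fold higher (0.91 ± 0.154; adjusted p = 0.000477). Srebf1, whose product mainly drives fatty acid genes, was at -1.21, -1.32, -1.31 and -1.50 in ATII cells and -1.70, -1.83, -1.58 and -1.47 in fibroblasts. The highest fibroblast array lay above the lowest ATII array. Its 1.24-fold difference (0.31 ± 0.111; adjusted p = 0.0477) lost its call in 14 of 21 alternative settings, among them slide as a block, replicate number as a block (adjusted p = 0.108) and leaving out fibroblast replicate 1, 2 or 3 or ATII replicate 1, 2 or 3, with adjusted p up to 0.383.

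The proteins that retain or escort SREBPs did not move as one. Insig1, which is itself an SREBP target, was at 0.71, 1.22, 0.59 and 0.51 in vehicle ATII cells and -0.56, 0.082, 0.10 and -0.10 in vehicle fibroblasts. All ATII arrays were higher, by 1.84-fold on average (0.88 ± 0.19; adjusted p = 0.00287). Insig2, its paralog, ran the other way, at 1.80, 1.88, 1.87 and 1.97 in ATII cells and 2.32, 2.28, 2.14 and 2.12 in fibroblasts. The groups did not overlap, and ATII cells were 1.26-fold lower (-0.34 ± 0.104; adjusted p = 0.025). The second Insig2 probe had -0.40 ± 0.184, and the call was lost in 9 of 21 alternatives, among them replicate number as a block (adjusted p = 0.0762), either slide alone and leaving out fibroblast replicate 1 or 2 or ATII replicate 1, 2 or 3 (adjusted p from 0.00495 to 0.239 over the 21). Scap, the escort, was at 4.33, 4.23, 4.29 and 4.27 in ATII cells and 4.18, 3.90, 4.14 and 4.05 in fibroblasts. The ranges did not overlap but lay close together, and the difference of 0.21 ± 0.0994 did not pass (adjusted p = 0.13).

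**Figure D3:**
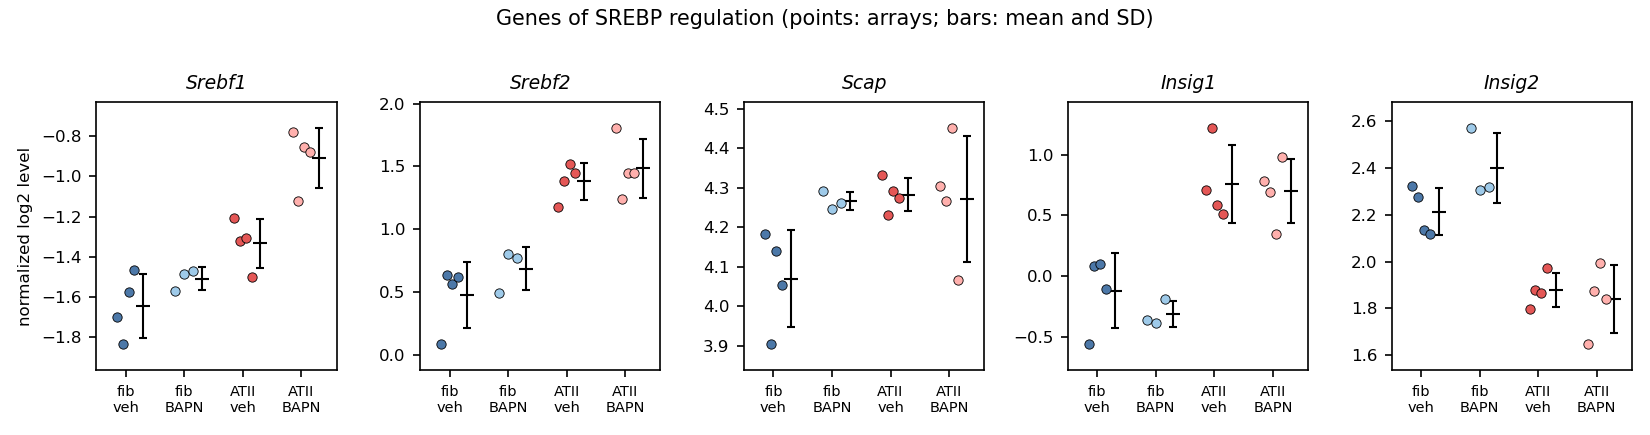
Normalized log2 level (y axis) of Srebf1, Srebf2, Scap, Insig1 and Insig2 on each array (points) in the 4 groups (x axis; fib, fibroblasts; veh, vehicle), with mean and SD. Srebf2 and Insig1 lie higher in ATII cells and Insig2 lower, while the ATII BAPN arrays of Srebf1, from -1.12 to -0.78, lie above its ATII vehicle arrays, from -1.50 to -1.21.

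Among the fatty acid genes, the desaturases Scd2, Scd1 and Fads2 had the 3 largest differences. Scd2, a stearoyl-CoA desaturase, was at 7.06, 7.32, 7.10 and 7.10 in vehicle ATII cells and 5.23, 4.97, 5.21 and 5.41 in vehicle fibroblasts. The arrays of a group lay close together, and ATII cells were 3.84-fold higher (1.94 ± 0.119; adjusted p = 4.84e-08). Scd1, its close paralog, was at 3.54, 3.79, 3.77 and 3.76 in ATII cells and 2.18, 2.15, 2.11 and 1.73 in fibroblasts. ATII replicate 1 and fibroblast replicate 4 were the low arrays of their groups, and the difference was 3.19-fold (1.67 ± 0.176; adjusted p = 7.99e-06). Sequence shared by paralogs can carry signal between their probes, which was not examined here. Fads2, which desaturates polyunsaturated fatty acids at an early step, was at 1.57, 1.69, 1.59 and 1.69 against 0.24, 0.49, 0.15 and -0.27. The ATII arrays were tight and the fibroblast arrays spread, with a 2.79-fold difference (1.48 ± 0.142; adjusted p = 3.26e-06), and its other probe had 0.90 ± 0.16. Fads1, the partner desaturase, was 1.67-fold higher (adjusted p = 0.0015).

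Acly, which cleaves citrate to acetyl-CoA, was 1.98-fold higher in vehicle ATII cells (0.98 ± 0.125; adjusted p = 4.24e-05), while its second probe had 0.43 ± 0.169. Acaca, which makes malonyl-CoA, was 1.54-fold higher (adjusted p = 0.00421), its groups overlapped, and its 4 probes ranged from 0.16 to 0.63. Fasn, the fatty acid synthase, was 1.52-fold higher without overlap (0.61 ± 0.106; adjusted p = 0.000605). The elongases Elovl6 and Elovl5 were 2.14-fold and 1.33-fold higher (adjusted p = 5.17e-05 and 0.0102). Lpin1, a phosphatidate phosphatase on the way to glycerolipids, was 1.8-fold higher (adjusted p = 0.00284), but with the mean of its 2 probes, of which the other was too dim to test, it had 0.39 and did not pass (adjusted p = 0.133). Elovl5 lost its call with the replicate block fitted to the vehicle arrays alone (adjusted p = 0.0525). Of the 29 genes that passed, 24 kept the call in each alternative that used all arrays compared or left out 1, and 16 also did so on either slide alone.

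Neighbouring pathways, taken from lists chosen with earlier results of these data known, showed smaller shares. Of 6 tested further genes of sterol and isoprenoid synthesis, 2 were higher and 0 lower in vehicle ATII cells (median 0.31). These were Msmo1, a sterol oxidase (2.38-fold), and Sc5d, a sterol desaturase (1.58-fold). Of 9 genes of sterol export, transport and esterification, 2 were higher and 3 lower (median 0.14). The exporter Abcg1 was 2.9-fold higher, whereas the exporter Abca1 was 2.6-fold lower, Nr1h3, a sterol-sensing nuclear receptor, 3.24-fold lower, and Soat1, which esterifies cholesterol, 1.57-fold lower. Of 16 tested further genes of fatty acid synthesis and modification, 4 were higher and 2 lower (median 0.19). Elovl7, an elongase, was 34.8-fold higher, Acsl3 and Acsl4, which activate fatty acids, 4.32-fold and 2.67-fold higher, and Mlxipl, a carbohydrate-responsive regulator, 2.32-fold lower.

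Of 12 genes of glycerolipid and phosphatidylcholine synthesis, 1 was higher and 1 lower (median -0.0054). The surfactant-remodelling acyltransferase Lpcat1 was 1.38-fold higher and the triglyceride-making Dgat2 2.44-fold lower. Of 10 genes of fatty acid oxidation, 0 were higher and 2 lower (median -0.22), namely Pdk4, a kinase that restrains pyruvate use (4.58-fold), and Cpt1a, which admits fatty acids to mitochondria (1.5-fold). Beside these, 14.5% of all features were higher and 16.9% lower. No test between lists was made.

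The BAPN arrays of both cell types gave a second comparison, whose group means share no arrays with those of the first. It is not independent of the first, since both used the spread estimated over all arrays and lay on the same slides. Of the 32 genes, 26 were higher in BAPN-treated ATII cells than in BAPN-treated fibroblasts, 1 (Insig2) was lower and 5 did not pass, against 29.3% of 32268 features called, 13.4% higher and 15.9% lower. Groups did not overlap for 27 of the genes and for 34% of all features, 15.4% higher and 18.5% lower. The median log2 difference was 0.94 over the genes and 0.012 over all features. Altogether 24 genes were higher on both sets of arrays, 1 was lower on both, and 1, Scap, passed on neither. The 4 that passed with vehicle alone were Hsd17b7 (0.38), Elovl5 (0.18), Fads1 (0.42) and Lpin1 (0.45), and the 2 that passed on BAPN arrays alone were Acat2 (0.94) and Mvk (0.48). The tests of the BAPN effect in each cell type and of their difference bear on such gaps, and are given further on. Across the 32 genes, which are not independent replicates, the differences on both sets of arrays correlated with Pearson's r of 0.864. Hsd17b7 passed once fibroblast BAPN replicate 2 was left out, and Fads1 and Lpin1 once ATII BAPN replicate 1 was left out. Fads1 also passed on all arrays with slide as a block (0.47, adjusted p = 0.049, limma). Only 9 of the genes passed on slide 2 alone, which held 2 fibroblast and 1 ATII BAPN arrays, and 26 passed on slide 1 alone, which held 1 fibroblast and 3 ATII BAPN arrays. A lone array is assumed to vary like the other groups. Over all features, 7879 passed on slide 1 alone and 1838 on slide 2 alone.

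Fdps had the largest difference on the BAPN arrays, at 6.75, 6.81, 6.80 and 7.01 in ATII cells and 4.75, 4.72 and 4.65 in fibroblasts. The 3 fibroblast arrays were nearly level, and ATII cells were 4.39-fold higher (2.14 ± 0.152; adjusted p = 2.46e-07). Hmgcs1 was at 5.65, 5.98, 5.89 and 5.87 against 3.73, 3.93 and 3.66, a 4.21-fold difference (2.07 ± 0.129; adjusted p = 7.07e-08). By this brighter Hmgcs1 probe, the BAPN arrays thus gave nearly the value of the vehicle arrays. The mean of both Hmgcs1 probes, of which the second was dim, had 1.24 with BAPN (adjusted p = 0.00173, limma) against 2.02 with vehicle. Scd2 was at 7.18, 7.33, 7.50 and 7.37 in ATII cells and 5.41, 5.22 and 5.55 in fibroblasts (3.86-fold higher; 1.95 ± 0.128). Dhcr7 was at 0.063, 0.24, -0.04 and 0.42 in ATII cells and -1.89, -1.80 and -1.62 in fibroblasts (3.84-fold higher; 1.94 ± 0.14). Neither gene had overlapping groups. Fdft1 was at 3.38, 3.67, 3.46 and 3.60 and 1.68, 1.94 and 1.96 in ATII cells and fibroblasts (1.67 ± 0.117).

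Lss, with fibroblast replicate 1 the low array, was at 1.53, 1.78, 1.58 and 1.87 in BAPN-treated ATII cells and -0.37, 0.29 and 0.22 in fibroblasts (1.64 ± 0.184). Mvd was at 2.50, 2.48, 2.29 and 2.48 and 1.00, 1.13 and 1.07 (1.37 ± 0.146). Both lay higher in ATII cells on all arrays. Nsdhl was at 1.69, 1.90, 1.62 and 2.00 in ATII cells and 0.22, 0.32 and 0.22 in fibroblasts (1.55 ± 0.131), and Idi1 at 4.26, 4.36, 4.06 and 4.44 and 2.82, 2.93 and 2.66 (1.48 ± 0.135). Scd1 was at 3.15, 3.92, 3.83 and 4.05 in ATII cells and 2.45, 2.29 and 2.24 in fibroblasts (1.41 ± 0.19). ATII replicate 1 was the low Scd1 array, still above all fibroblast arrays. Insig2 was at 1.65, 1.87, 2.00 and 1.84 in ATII cells and 2.57, 2.31 and 2.32 in fibroblasts, 1.47-fold lower in ATII cells (-0.56 ± 0.112; adjusted p = 0.00188), and Scap stood at 4.30, 4.27, 4.45 and 4.07 and 4.29, 4.25 and 4.26. Srebf2 (0.80 ± 0.166; adjusted p = 0.00248), Insig1 (1.01 ± 0.205; adjusted p = 0.00202) and Srebf1 (0.60 ± 0.12; adjusted p = 0.00184) were higher. The second, dimmer Srebf2 probe had -0.25 ± 0.19 on these arrays, against 0.59 ± 0.176 on the vehicle arrays, and the mean of both probes had 0.28 with BAPN and did not pass (adjusted p = 0.203).

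The remaining genes that passed on the BAPN arrays ranged from Stard4 (0.43 ± 0.146), Mvk (0.48 ± 0.168) and Fads2 (0.50 ± 0.153) to Cyp51 (1.31 ± 0.14), with Fasn (0.69), Acaca (0.75), Pmvk (0.80), Ebp (0.84), Acly (0.93), Acat2 (0.94), Elovl6 (0.96), Sqle (1.08) and Tm7sf2 (1.08) between. Stard4 lost its call when any of fibroblast replicates 1, 2 and 4 or ATII replicates 1, 3 and 5 was left out. Mvk lost it without fibroblast replicate 2 or 4 or ATII replicate 3, 4 or 5, and Fads2 without fibroblast replicate 4 or ATII replicate 5. Adjusted p over the alternatives reached 0.731 for Stard4, 0.258 for Mvk and 0.486 for Fads2.

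Whether BAPN altered these genes was then tested within each cell type, and most values stayed within the spread of the arrays. In fibroblasts, 1 of the 32 genes, Fads2, passed the test, and it was higher with BAPN. Over all 32255 features, 13.4% passed, 2.36% higher and 11.1% lower. An unadjusted p under 0.05 was reached by 3 of the 32 genes and by 8744 of all features. The median log2 difference was 0.19 over the genes and 0.023 over all features, and the former became -0.0094 after the position correction. That correction took each array's median deviation from its cell type's mean, over both treatments, in strips of 10 columns and 5 brightness classes. It can therefore also remove shifts between treatments that depend on brightness, and position and brightness cannot be told apart in it. By the probe used, the 95% interval stayed within a 2-fold change for 31 of the 32 genes, all except Fads2, and within 1.5-fold for 23. Over all features these shares were 60.7% and 33.2%. The mean of both Hmgcs1 probes (0.60 ± 0.245) was not part of this count. By role, the median was 0.062 for sterol synthesis, 0.28 for fatty acid synthesis and 0.19 for SREBP regulation. In the neighbouring pathways, Hsd17b12, an elongation enzyme (0.36), and Chka, a choline kinase (0.46), were the only genes called, both higher with BAPN. Among marker genes of other cell types, Cldn4 (-2.14), Cd3e (-0.84), Kdr (-0.53) and Lep (-1.56) were lower with BAPN and 0 were higher, and their part was not tested.

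**Figure D4:**
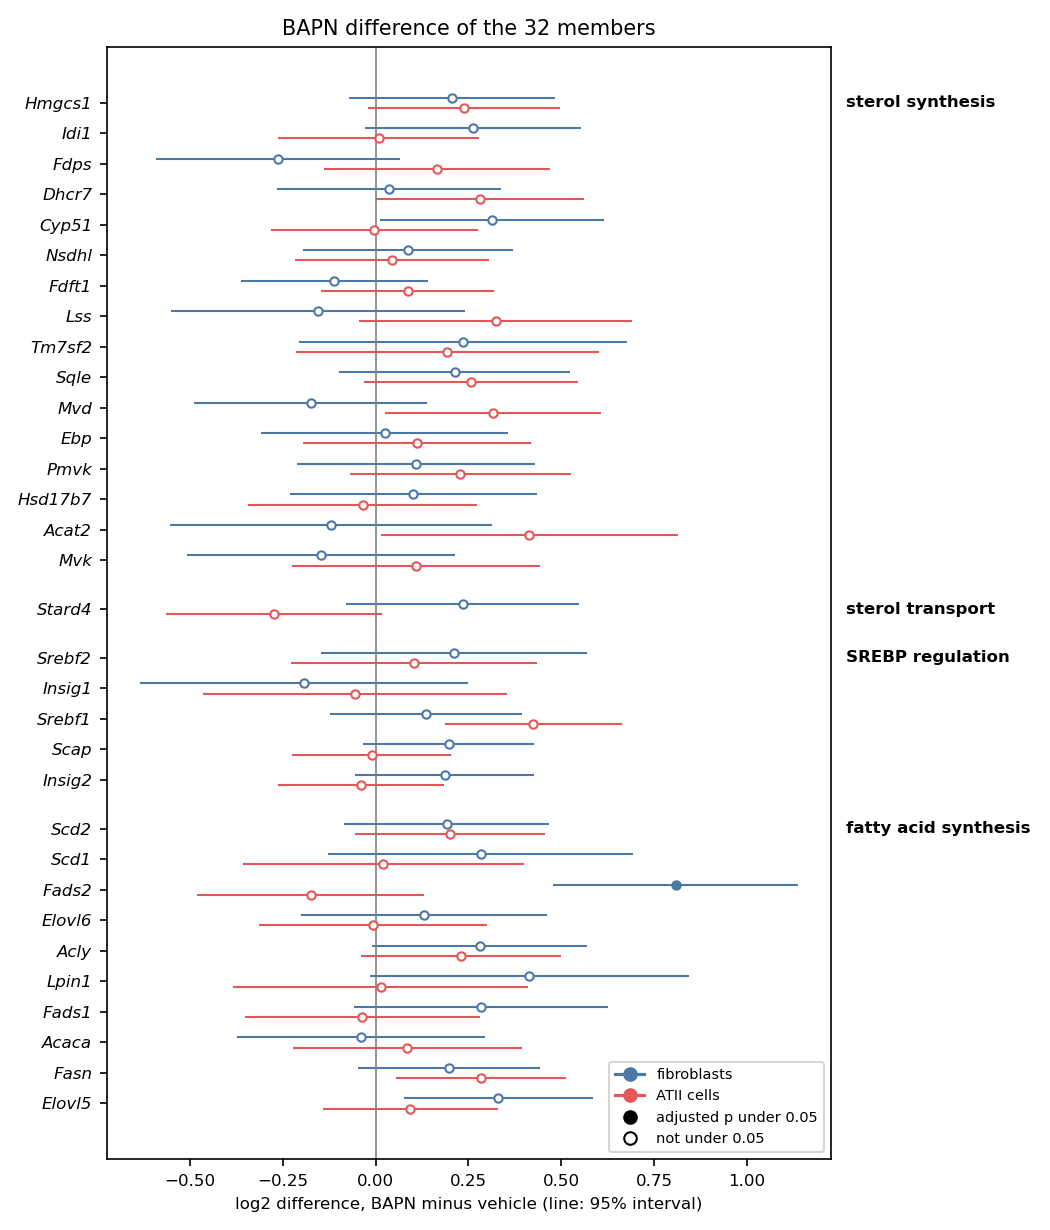
Log2 difference between BAPN and vehicle (x axis) for each of the 32 genes (y axis, by role) in fibroblasts (blue) and ATII cells (red), with 95% intervals from limma; filled points passed an adjusted p of 0.05. Fads2 in fibroblasts, at 0.81, is the only filled point.

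Fads2 was at 1.00, 1.09 and 0.79 on the fibroblast BAPN arrays and 0.24, 0.49, 0.15 and -0.27 on the fibroblast vehicle arrays. The lowest BAPN array lay above the highest vehicle array, and the difference was 1.75-fold (0.81 ± 0.153; adjusted p = 0.00945). The value was similar on slide 1 alone, which held 1 BAPN array assumed to vary like the other groups (0.81, adjusted p = 0.0555) and on slide 2 alone, which held 2 (0.83, adjusted p = 0.113), and passed on neither. The call was also lost after the correction by array position and brightness (0.60, adjusted p = 0.0541, limma). It was lost too with the compared groups fitted alone, and with replicate number as a block (0.80, adjusted p = 0.0514). Over 19 alternatives the adjusted p ran from 0.00632 to 0.113.

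The result belongs to 1 of 2 Fads2 probes, a disagreement noticed after the values were seen. The first bases of each 60-base probe are shown, with its position on mm9, the build of the array's design, to mark where the probes lie.
A_65_P20641, chr19:10137760-10137819, minus strand: tttagctgttgtgttaacatttcctacaga
A_66_P130115, chr19:10163229-10163288, minus strand: agctggatggctgcaacatgactatggcca
The probes start 25469 bases apart on the same strand. The former, brighter and therefore used for the gene, was designed on a cDNA clone of unspecified strand that the RefSeq table does not list, and the latter on the RefSeq mRNA of Fads2. The latter was at -1.19, -0.82 and -0.54 on fibroblast BAPN arrays and -0.71, -0.90, -1.09 and -0.75 on fibroblast vehicle arrays. These ranges overlapped, and the BAPN effect was 0.011 ± 0.173 (adjusted p = 0.979 over probes). It was well above background on all 15 arrays. The mean of both probes had a BAPN effect of 0.41 (adjusted p = 0.0448). Between cell types both probes had the same direction, 0.90 ± 0.16 with vehicle and 0.82 ± 0.173 with BAPN for the RefSeq probe.

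**Figure D5:**
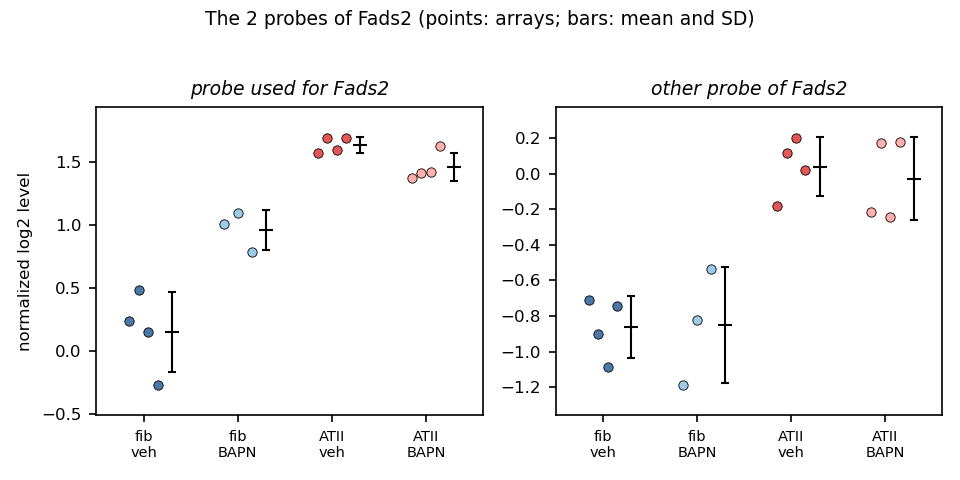
Normalized log2 level (y axis) of both Fads2 probes on each array (points) in the 4 groups (x axis; fib, fibroblasts; veh, vehicle), with mean and SD. In the left panel the fibroblast BAPN arrays (0.79 to 1.09) lie above the fibroblast vehicle arrays (-0.27 to 0.49), whereas in the right panel they overlap (-1.19 to -0.54 against -1.09 to -0.71).

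The next smallest p-values in fibroblasts belonged to Elovl5 (0.33 ± 0.118; adjusted p = 0.0838), Cyp51 (0.31 ± 0.14; adjusted p = 0.167) and Acly (0.28 ± 0.135; adjusted p = 0.2), which did not pass. Elovl5 was at 2.70, 2.89 and 2.83 with BAPN and 2.69, 2.31, 2.41 and 2.50 with vehicle. Its groups just failed to overlap, and it passed once fibroblast vehicle replicate 1 was left out. Cyp51 was at 0.53, 0.052 and 0.35 with BAPN and 0.013, 0.03, -0.095 and 0.044 with vehicle, and Acly at 4.83, 4.65 and 4.74 and 4.43, 4.18, 4.55 and 4.68. BAPN replicate 2 of Cyp51 lay barely above the vehicle arrays, and the Acly groups overlapped. Besides Fads2, Elovl5 and Cyp51, groups did not overlap for Idi1, Scap and Scd1 (0.26, 0.20 and 0.28), all 6 being higher with BAPN, against 24% of all features without overlap, 7.35% higher and 16.6% lower. The sterol genes with the largest cell type differences had BAPN effects in fibroblasts of 0.21 (Hmgcs1), -0.26 (Fdps), 0.036 (Dhcr7), 0.087 (Nsdhl) and -0.11 (Fdft1). Among the regulators they were 0.14 (Srebf1), 0.21 (Srebf2), -0.19 (Insig1) and 0.19 (Insig2). With the mean of both its probes, Hmgcs1 had 0.60 in fibroblasts and did not pass (adjusted p = 0.135, limma).

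In ATII cells, none of the 32 genes passed the test of BAPN against vehicle, and nor did any of the 32045 features (0 called, 0%, by limma). An unadjusted p under 0.05 was reached by 5 of the 32 genes and 3335 of all features. The median log2 difference was 0.098 over the genes and -0.00054 over all features. By the probe used, the 95% interval lay inside 2-fold for 32 of 32 genes and inside 1.5-fold for 27, against 69.9% and 44.1% of all features. Srebf1 had the smallest p-value, at -0.78, -1.12, -0.85 and -0.88 with BAPN and -1.21, -1.32, -1.31 and -1.50 with vehicle. All 4 BAPN arrays lay above all 4 vehicle arrays, by 0.42 ± 0.111 (adjusted p = 0.463, limma). On slide 1 alone the effect was 0.33 and on slide 2 alone 0.56. Fasn was at 0.60, 0.63, 0.64 and 0.74 with BAPN and 0.47, 0.46, 0.30 and 0.23 with vehicle. Its groups did not overlap either, with 0.28 ± 0.106 (adjusted p = 0.463, limma).

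Mvd was at 2.50, 2.48, 2.29 and 2.48 with BAPN and 2.25, 2.37, 2.04 and 1.82 with vehicle in ATII cells (0.32 ± 0.135), and Acat2 at -0.77, -0.53, -0.81 and -0.1 and -1.02, -0.79, -0.92 and -1.13 (0.41 ± 0.186). Groups overlapped in both, and neither passed (adjusted p = 0.463 and 0.463, limma). Tm7sf2 was the third gene without overlap, with 0.19. These 3 of 32 compare with 9.1% of all features without overlap, 3.44% higher and 5.66% lower. Of the 16 sterol synthesis genes, 14 had a value above 0 (median 0.18), from -0.035 (Hsd17b7) to 0.41 (Acat2), and Stard4 had -0.28. Over all 32045 features, 15998 had a value above 0. Genes measured on the same arrays are not independent, and no test was made of this count. Hmgcs1 had 0.24, Scd2 0.20, Srebf2 0.10, Insig1 -0.055 and Insig2 -0.039. With the mean of both its probes, Hmgcs1 had -0.18 (adjusted p = 0.735, limma).

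The difference between the BAPN effects of ATII cells and fibroblasts passed for 0 of the 32 genes and for 0 of 34287 features (0%, limma), with 3 genes and 4723 features at an unadjusted p under 0.05. Fads2 had the largest value, -0.98 ± 0.21 (adjusted p = 0.184), with -0.18 in ATII cells and 0.81 in fibroblasts. Its RefSeq probe had -0.077 ± 0.237. Stard4 (-0.51 ± 0.2), Mvd (0.49 ± 0.2) and Fdps (0.43 ± 0.209) had the next smallest p-values, with adjusted p of 0.292, 0.306 and 0.386. Stard4 was at 1.88, 1.81, 1.61 and 1.86 with BAPN and 1.80, 2.31, 2.03 and 2.12 with vehicle in ATII cells, and at 1.28, 1.37 and 1.44 with BAPN and 1.05, 1.39, 1.23 and 0.85 with vehicle in fibroblasts. Its groups overlapped in both cell types, and the effect lay below 0 in ATII cells and above 0 in fibroblasts. Mvd ran the other way, with its fibroblast vehicle arrays at 1.09, 1.09, 1.26 and 1.54, and Fdps likewise. Acat2 (0.53 ± 0.275) and Lss (0.48 ± 0.252) did not pass either. Nor did Hmgcs1 with the mean of both its probes (-0.78 ± 0.336, adjusted p = 0.339, limma). By the probe used, the 95% intervals of the differences lay inside 2-fold for 29 of 32 genes, against 45.6% of all features. For Acat2, Lss and Fads2 a difference of that size between the cell types was thus not bounded by these arrays. The mean of both Hmgcs1 probes was not part of this count.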

How the data were processed

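Per the labels' protocols, each array received the Cy3-labelled cRNA of 1 sample. The deposited scanner files hold an intensity per spot. Per the file headers, Agilent Feature Extraction 10.7.3.1 subtracted background, without normalizing between arrays, and the array was designed on mm9. Values in the deposited series table are log2, with a median of 5.96 in each column, equal after sorting to within 0.0030, so they were quantile normalized, and it served as an alternative. Its background step is not given in the sources used here. The ATII BAPN array labelled as a replacement carries no number and is replicate 5. Fibroblast BAPN replicate 3 was not analysed here.

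Levels are log2 of the processed signal, less the 75th percentile of that array's non-control probes. The brightest of a gene's probes stood for it. A feature (gene or unnamed probe) was tested if well above background on at least 3 arrays compared. limma 3.58.1 (R 4.3.3) was fitted with a mean per group to all 15 arrays (11 residual degrees of freedom), two-sided, with Benjamini-Hochberg adjustment over all features, threshold 0.05. SE and 95% intervals come from this fit. A fold bound ("at least") takes, for the dim group, the higher of the probe's own signal and the lowest signal well above background on each array. Scripts were tested on simulated data. The number of arrays limits the precision. Python 3.11.15, pandas 2.3.3 and matplotlib 3.10.9 were also used. The members, lists and rule for named genes were chosen with earlier results of these data known. One gene of a neighbouring list is not reported here, and that list's counts leave it out. Values on each array are given for up to 10 genes with the largest non-overlapping difference between cell types, for the 4 smallest p-values under BAPN and for 5 SREBP regulators. Replicate numbers were taken to pair samples where at least 3 same-numbered pairs all correlated above 0.1 in their deviations from the group means. This held for the vehicle arrays of both cell types (r from 0.23 to 0.33), although other-numbered arrays of the same slide correlated similarly (0.19 to 0.31), and for no other comparison. Vehicle arrays of the 2 cell types on different slides correlated from -0.34 to -0.16. Same-numbered arrays always shared a slide, so that pairing by number and a shared slide cannot be told apart. The main fit held a term for neither. Alternatives are in the closing section.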

Additional observations from a re-analysis of the deposited data

Results flagged for a closer look

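Within each group of 4 arrays, each gene's highest and lowest array were compared with the others by Dixon's test at the 95% level. Of 96 such groups, 6 held an array that stood apart, and chance gives about 1 in 20. Fdft1 was at 3.60 on ATII vehicle replicate 2, while the other arrays of the group ran from 3.37 to 3.40. Scd2 was at 7.32 on that array, with the others from 7.06 to 7.10. Scd1 was at 3.54 on ATII vehicle replicate 1 (others 3.76 to 3.79) and at 1.73 on fibroblast vehicle replicate 4 (others 2.11 to 2.18). Mvd was at 2.29 on ATII BAPN replicate 4, with the others from 2.48 to 2.50. Srebf2 was at 0.085 on fibroblast vehicle replicate 1, with the others from 0.56 to 0.63. None of these arrays reached the range of the other cell type under the same treatment.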

How the results depend on the processing

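No called value of the 32 genes changed sign under any alternative. In the vehicle comparison of cell types the number of genes called was 27 to 29 with 1 array left out and 18 on slide 2 alone, and over all features 8745 to 9809, 6488 on slide 1 alone and 4748 on slide 2 alone. On BAPN arrays it was 24 to 28 with 1 array left out and 9 on slide 2 alone, and over all features 7598 to 11391 and 1838 on slide 2 alone. For BAPN in fibroblasts, the genes called numbered 1 to 2 with 1 array left out, and 0 on slide 1 alone, on slide 2 alone, after position correction, with the groups compared alone and with the replicate block. Over all features they numbered 571 on slide 1 alone, which held 1 BAPN array, 2384 after position correction, 2356 with the groups alone, 0 with the replicate block and 1187 to 4291 with 1 array left out (1824 without vehicle replicate 2, 1997 without vehicle replicate 4, 1187 without BAPN replicate 2 and 2002 without BAPN replicate 4). For BAPN in ATII cells, 3180 features passed on slide 2 alone, which held 1 BAPN array assumed to vary like the other groups, and 0 to 1 with 1 array left out. For the difference of BAPN effects, 2 features passed without the filter on dim probes, 122 on slide 1 alone (1 fibroblast BAPN array), 1 after position correction, and 0 to 275 with 1 array left out (275 without ATII BAPN replicate 4, 15 without fibroblast BAPN replicate 1). The cause of these changes was not tested, beyond the fewer arrays of the slide splits. Between the cell types, the replicate block left 27 genes called with vehicle and 24 with BAPN. In a block fit of the vehicle arrays alone, chosen after seeing the data, 26 genes and 9841 features passed. In the comparisons other than vehicle ATII cells against fibroblasts, same-numbered samples of the groups compared correlated from -0.15 to 0.23, and the numbers were not taken to pair them. Dim probes limit the precision of Fdft1's and Hmgcs1's second probes.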
